A study of Mus musculus with 13 samples.

Results

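The genes described here are 10 that mark macrophages: the 3 chains of the complement protein C1q (C1qa, C1qb and C1qc), the surface receptors Csf1r, Cd14 and Mrc1, the signalling adaptors Tyrobp and Fcer1g, the lysosomal protein gene Cd68 and the cytoplasmic protein gene Aif1. They were chosen by name, and all 10 are among the 20662 genes listed in the 2 tables analysed. The tables come from RNA of spermatogonia, the mitotic germ cells of the testis, of 8-week-old C57BL/6 mice with no other genotype or treatment given. The samples are titled KIT_AGSC and THY1_AGSC after the surface antigens KIT (carried by differentiating spermatogonia) and THY1 (used to enrich undifferentiated ones), with 1 library each. The labels do not say how the cells were isolated or how many mice gave them. The series holds 13 samples, of which 11 were not analysed here. Because each group has 1 library, each difference is one between 2 libraries, without a replicate check or a p-value.

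Macrophages are the main resident immune cells of the testis. They lie in the interstitium beside the testosterone-producing Leydig cells and on the outer wall of the seminiferous tubules, not among the germ cells inside. Their survival depends on signalling from the cytokine CSF1 through its receptor CSF1R, which in the mouse testis has also been described on undifferentiated spermatogonia. The genes are not equally specific: C1q is made largely by macrophages, whereas Fcer1g and Tyrobp also serve mast cells, natural killer cells and neutrophils. In bulk samples, fewer macrophages and less RNA per macrophage cannot be told apart.

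The library labels were checked first. Kit was listed at 0 in the KIT-labelled library and at 36.7 FPKM (the unit taken for these tables: fragments scaled by transcript length and library size, a level per length) in the THY1-labelled library. Thy1 stood at 78.8 and 0.723 FPKM in the same order. Both antigens went against the titles, and the value column of each table also carries the other name, so the names KIT-labelled and THY1-labelled library repeat the titles only. Exchanging the titles would reverse every direction given here. The noncoding RNA Rpph1 held 71.8% of all FPKM in the KIT-labelled library and 37.9% in the other.

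The 10 genes did not move together. On the log2(FPKM + 1) scale, 4 were higher by 2-fold or more in the KIT-labelled library (C1qa, C1qb, C1qc and Cd14) and 3 higher by 2-fold or more in the THY1-labelled library (Aif1, Mrc1 and Tyrobp). Cd68 and Csf1r lay within 2-fold, and Fcer1g was listed at 0 in both. Over all 20662 listed genes, 29.8% were higher by 2-fold or more in the KIT-labelled library and 31.0% in the other, so counts of 4 and 3 in 10 are near the background. The median difference, labelled KIT minus labelled THY1, was 0.23 over the 10 genes and 0 over all listed genes. The C1q genes stood on one side, and Aif1 and the mannose receptor gene on the other.

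The promoters of the genes with the largest differences in each direction are given as 250 bases before and 50 after the annotated start, 5′ to 3′ along the gene. C1qb and C1qc stand for the genes higher in the KIT-labelled library, Aif1 and Mrc1 for those higher in the THY1-labelled library. Sequences are from RefSeq on GRCm38.p6, another build than the mm9 named for the tables. Promoters of 6 of the 10 genes were examined. C1qa and Tyrobp had no entry by symbol in the table of promoters, and Csf1r and Cd14 were left out of the search. Capitals mark matches, on either strand, to short motifs of factors known in myeloid cells: GAGGAA (bound by PU.1-type ETS factors), TGTGGT (RUNX factors) and TGAGTCA (AP-1).
C1qb, chr4:136886151-136886450, minus strand: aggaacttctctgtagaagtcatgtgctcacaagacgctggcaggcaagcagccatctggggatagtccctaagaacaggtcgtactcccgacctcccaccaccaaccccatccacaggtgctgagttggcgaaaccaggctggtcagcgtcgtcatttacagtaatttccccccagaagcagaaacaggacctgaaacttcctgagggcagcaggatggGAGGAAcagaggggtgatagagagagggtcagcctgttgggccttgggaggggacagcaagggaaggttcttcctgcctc
C1qc, chr4:136892865-136893164, minus strand: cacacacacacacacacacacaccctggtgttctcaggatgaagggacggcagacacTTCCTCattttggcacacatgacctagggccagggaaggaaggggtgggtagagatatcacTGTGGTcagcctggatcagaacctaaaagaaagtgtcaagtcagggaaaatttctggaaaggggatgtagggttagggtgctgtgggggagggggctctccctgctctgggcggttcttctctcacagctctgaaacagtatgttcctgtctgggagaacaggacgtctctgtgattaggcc
Aif1, chr17:35176003-35176302, minus strand: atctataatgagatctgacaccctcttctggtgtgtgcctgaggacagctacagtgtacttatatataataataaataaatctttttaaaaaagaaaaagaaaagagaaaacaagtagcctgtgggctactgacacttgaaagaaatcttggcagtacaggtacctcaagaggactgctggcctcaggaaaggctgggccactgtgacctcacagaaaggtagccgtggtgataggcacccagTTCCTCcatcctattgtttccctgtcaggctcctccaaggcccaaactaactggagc
Mrc1, chr2:14229164-14229463, plus strand: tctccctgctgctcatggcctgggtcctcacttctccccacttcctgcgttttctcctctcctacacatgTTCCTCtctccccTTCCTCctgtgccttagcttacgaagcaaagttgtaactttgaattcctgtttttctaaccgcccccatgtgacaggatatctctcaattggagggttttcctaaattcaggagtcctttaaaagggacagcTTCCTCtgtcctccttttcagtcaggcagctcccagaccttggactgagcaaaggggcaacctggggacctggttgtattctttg
GAGGAA occurred in 5 of the 6 promoters examined, including these 4, and in 28.3% of all 32851 promoters of the same length in the table. The promoters of Csf1r and Cd14 were not searched, so the counts do not cover them. Mrc1 held 3 matches to it, all on the strand opposite the gene, and C1qb, C1qc and Aif1 held 1 each. C1qc also held 1 match to TGTGGT, found in 16.8% of all promoters. TGAGTCA, in 5.20% of all promoters, matched in Cd68 alone of the 6, at 2 places. No matches overlapped one another. The motif common to the 4 promoters thus occurs in genes of both directions. PU.1 itself, listed under its older symbol Sfpi1, was at 0 in the KIT-labelled library and at 2.29 FPKM in the other.

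The 3 C1q genes code for the A, B and C chains, which assemble in equal numbers into C1q, the molecule that recognises immune complexes and dying cells and starts the classical complement pathway. C1qb stood at 118.7 FPKM in the KIT-labelled library and 16.0 FPKM in the THY1-labelled library, a ratio of 7.41. It was the highest of the 10 genes in the former, above 96.8% of all listed genes. C1qa stood at 30.9 and 5.39 FPKM in the same order, a ratio of 5.74. C1qc was at 48.3 FPKM in the KIT-labelled library and listed at 0 in the THY1-labelled library, so no ratio is given. All 3 chains were thus higher in the KIT-labelled library, by log2 differences of 2.81 for C1qb, 2.32 for C1qa and 5.62 for C1qc. The difference of C1qc lay above that of 99.8% of all listed genes.

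C1qb was the highest of the 3 chains in both libraries. It exceeded C1qa 3.84-fold in the KIT-labelled library and 2.98-fold in the THY1-labelled library. In the former C1qb also exceeded C1qc, by 2.46-fold. The 3 genes are direct neighbours on chromosome 4, in the order C1qb, C1qc, C1qa, with no other listed gene between them. The flanking genes code for ephrin receptors and were low: Ephb2 was at 1.28 FPKM in the KIT-labelled library and listed at 0 in the other, and Epha8 was listed at 0 and 0.511 FPKM. Summed, the chains gave 197.9 FPKM in the KIT-labelled library, 73.2% of the total of the 10 genes, and 21.4 FPKM or 2.15% in the THY1-labelled library.

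**Figure D1:**
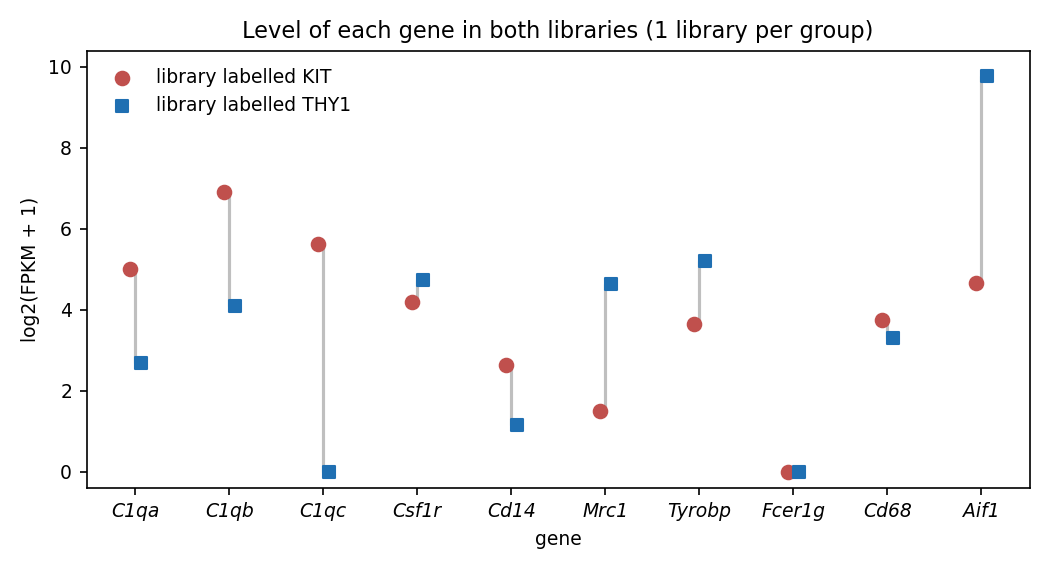
Level of each of the 10 genes as log2(FPKM + 1) in the KIT-labelled library (red circles) and the THY1-labelled library (blue squares), with a grey line joining the values of a gene and 1 library per group. The C1q chains are higher in the KIT-labelled library, Aif1, Mrc1 and Tyrobp are higher in the THY1-labelled library, and Fcer1g is listed at 0 in both.

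Of the receptors, Csf1r was the most even. The gene codes for the tyrosine kinase receptor of CSF1 and interleukin-34, and it stood at 17.2 FPKM in the KIT-labelled library and 25.8 FPKM in the THY1-labelled library. Its position among all listed genes was nearly the same, above 79.7% of them in each library. The log2 difference of -0.56 lay within 2-fold as deposited and at -1.08, just past it, when the libraries were scaled to a median ratio of 1.

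Mrc1, the mannose receptor CD206 that takes up glycoproteins and pathogens, differed far more. It was at 1.82 FPKM in the KIT-labelled library and 23.7 FPKM in the THY1-labelled library, a ratio of 13.0 in favour of the latter and a log2 difference of -3.13. It moved from above 45.6% of listed genes in the former to above 78.5% in the latter. Its nearest listed neighbours on chromosome 2 did not share a difference of this size. Fam23a was at 1.89 FPKM and a listed 0, and Slc39a12 at 2.13 and 4.52 FPKM, with the KIT-labelled library first. Slc39a12 thus ran in the direction of Mrc1, but with a log2 difference of only -0.82.

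Cd14, the anchored co-receptor that hands bacterial lipopolysaccharide to TLR4, was the lowest of the receptors in the THY1-labelled library. It stood at 5.22 FPKM in the KIT-labelled library and 1.21 FPKM in the THY1-labelled library, a log2 difference of 1.49. It was the one receptor of the 3 that was higher in the KIT-labelled library. Both values rest on few fragments, an estimated 3.13 and 4.67 in the same order.

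Tyrobp (DAP12) and Fcer1g (the Fc receptor gamma chain) are small membrane adaptors with an activation motif that recruits the kinase SYK. Tyrobp stood at 11.5 FPKM in the KIT-labelled library and 35.7 FPKM in the THY1-labelled library, a ratio of 3.12 in favour of the latter and a log2 difference of -1.56. Fcer1g was listed at 0 in both libraries. A listed 0 can be a failed estimate: Ppia, which nearly every cell expresses (singled out after its values were seen), was also listed at 0 in both tables. At the length of the Fcer1g transcript, 1 fragment would be worth about 0.625 FPKM in the THY1-labelled library. Hcst, which codes for the related adaptor DAP10 and is the gene next to Tyrobp on chromosome 7, ran the other way, at 67.9 FPKM in the KIT-labelled library against a listed 0.

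Aif1 had the largest difference of the 10 toward the THY1-labelled library. Known as IBA1, it codes for a calcium- and actin-binding protein of macrophages and microglia. It was at 24.5 FPKM in the KIT-labelled library and 880.5 FPKM in the THY1-labelled library, a ratio of 36.0. There it ranked 40 from the top among all listed genes and made up 88.3% of the summed level of the 10 genes, against 9.04% in the KIT-labelled library. Its log2 difference of -5.11 had 3.84% of listed genes below it. Neither neighbour on chromosome 17 followed: Bat2 (now Prrc2a) was at 12.9 FPKM in the KIT-labelled library and 14.3 FPKM in the other, and the myeloid gene Lst1 was listed at 0 in both.

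Cd68 is a heavily glycosylated protein of late endosomes and lysosomes, related to the LAMP proteins and often used to count macrophages. It stood at 12.5 FPKM in the KIT-labelled library and 8.79 FPKM in the THY1-labelled library, a log2 difference of 0.46. The values were close, and the sign turned to -0.054 when the libraries were scaled to a median ratio of 1. The general macrophage marker Cd68 and the CSF1 receptor were therefore within 2-fold as deposited, whereas C1q, Aif1 and Mrc1 were more than 4-fold apart in opposing directions. Summed over the 10 genes, the level was 270.6 FPKM in the KIT-labelled library and 997.1 FPKM in the THY1-labelled library. Leaving out Aif1 turned that order, to 246.1 and 116.7 FPKM.

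The order of the genes by level per length differed between the libraries. In the KIT-labelled library, C1qb, C1qc and C1qa came first, followed by Aif1, Csf1r, Cd68, Tyrobp, Cd14 and Mrc1. In the THY1-labelled library, Aif1 came first, followed by Tyrobp, Csf1r, Mrc1, C1qb, Cd68, C1qa and Cd14, with C1qc and Fcer1g at 0. Without replicates, neighbours in either order cannot be said to differ.

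Depth sets how far these values can be read. The tables give no counts, so the worth of 1 fragment was estimated from the low end of FPKM multiplied by transcript length, which was 2735 in the KIT-labelled library and 427 in the THY1-labelled library. One fragment thus counted for about 6.41 times more FPKM in the former. Dividing each value by this worth gives an estimated number of fragments. No interval is given, since the true depth is unknown.

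In the KIT-labelled library, only the C1q genes and Csf1r reached 10 estimated fragments, with 47.2 for C1qb, 29.6 for Csf1r, 21.2 for C1qc and 11.8 for C1qa. Aif1 had 7.82, Cd68 5.60, Mrc1 3.58, Cd14 3.13 and Tyrobp 2.50. The values of these 5 genes in that library therefore rest on a handful of fragments. In the THY1-labelled library the estimates were 1805 for Aif1, 299 for Mrc1, 284 for Csf1r, 50.0 for Tyrobp and 25.3 for Cd68.

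C1qb and C1qa, but not C1qc, had similar estimated fragment numbers in both libraries despite their different FPKM. C1qb had 47.2 in the KIT-labelled library and 40.8 in the THY1-labelled library, and C1qa had 11.8 and 13.1. Their FPKM ratios of 7.41 and 5.74 stand beside a ratio of 6.41 in the worth of 1 fragment. C1qc had 21.2 fragments against a listed 0, at a length where 1 fragment would be worth about 0.355 FPKM in the THY1-labelled library. Like any listed 0, this one can be a failed estimate, and the difference of C1qc depends on it. Cd14, with under 10 in both libraries, is by fragment number the least certain of the genes called 2-fold apart.

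**Figure D2:**
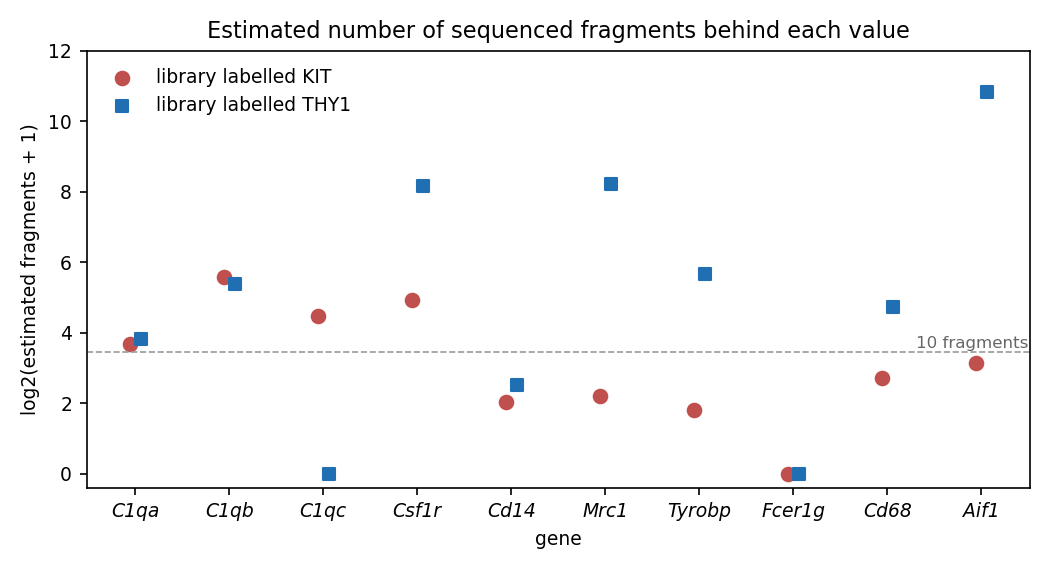
Estimated number of sequenced fragments behind each value, as log2(estimate + 1), in the KIT-labelled library (red circles) and the THY1-labelled library (blue squares), with the dashed line at 10 fragments. In the KIT-labelled library only the C1q genes and Csf1r lie above the line, and C1qa and C1qb have nearly the same estimates in both libraries.

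The genes 2-fold apart kept their directions in each of 4 other settings. Scaling to a median ratio of 1, to equal upper quartiles or to sums that leave out Rpph1 moved the median difference of all genes reaching 1 FPKM in either library from -0.0026 to -0.46, 0.23 and 0.19. Under these and a pseudocount of 0.1, the difference ranged from -5.65 to -4.85 for Aif1, from -3.63 to -2.95 for Mrc1 and from -2.07 to -1.31 for Tyrobp. It ranged from 1.78 to 2.58 for C1qa, from 2.26 to 3.08 for C1qb and from 1.03 to 2.02 for Cd14. C1qc, listed at 0 in one library, ranged from 5.07 to 8.92. Each of these 7 genes stayed past 2-fold in the same direction, while Csf1r passed it and Cd68 turned its sign under the median-ratio scaling alone. The scalings multiply all values of the KIT-labelled library by the same factor (log2 of -0.56, 0.27 and 0.22 in the order above). They could not have turned the direction of any of the 7, nor brought Aif1, Mrc1 or the C1q genes within 2-fold.

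**Figure D3:**
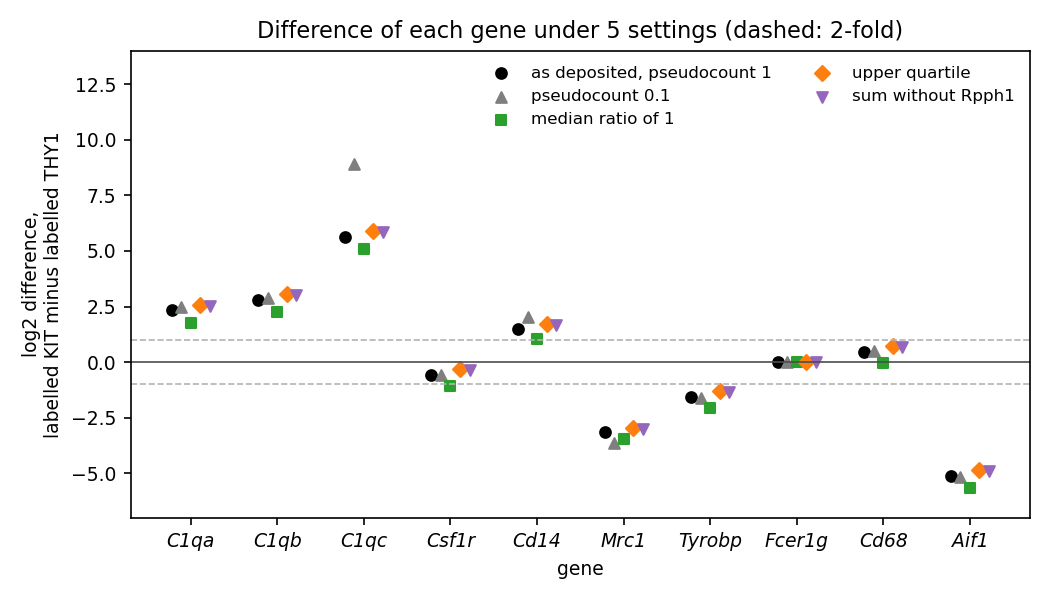
The log2 difference of each gene, labelled KIT minus labelled THY1, under 5 settings (marker shapes), with dashed lines at 2-fold. The C1q chains and Cd14 stay above the upper line and Aif1, Mrc1 and Tyrobp below the lower one in all 5.

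Other macrophage genes also differed in direction. Of 30 on the list, 11 were higher by 2-fold or more in the KIT-labelled library, 13 in the THY1-labelled library and 6 within 2-fold, with a median difference of 0. Over all listed genes the shares were 29.8% in the KIT-labelled library and 31.0% in the other, so a list with genes in both directions is not particular to macrophages. Higher in the THY1-labelled library were the lysosomal protease Ctss (2.0995 FPKM in the KIT-labelled library and 61.2 FPKM in the other) and the invariant chain Cd74 (19.7 and 107.4 FPKM). The scavenger receptor Msr1, the class II gene H2-Eb1 and the engulfment receptor Mertk were listed at 0 in the KIT-labelled library and at 19.0, 15.5 and 9.66 FPKM in the other. In the opposite direction, the folate receptor gene Folr2 was at 54.5 FPKM in the KIT-labelled library and 16.9 FPKM in the other.

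The defining markers did not point one way. The F4/80 antigen gene, listed as Emr1 (now Adgre1), was at 1.05 and 3.46 FPKM, with the KIT-labelled library first in this and the following pairs of values. Ptprc, the pan-leukocyte antigen CD45, was at a listed 0 and 4.34 FPKM. Itgam (CD11b) was at 1.44 and 0.212 FPKM. Cx3cr1, the fractalkine receptor, and the haemoglobin scavenger receptor Cd163 were at 3.04 and 0.375 FPKM and at 10.6 and 1.04 FPKM. The lysozyme gene Lyz2 was at 15.5 and 3.38 FPKM. Of the 11 genes higher in the KIT-labelled library, 8 rested on fewer than 10 estimated fragments there, against 1 of the 13 higher in the THY1-labelled library.

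The partners of the receptors were examined next. Csf1, the main ligand of CSF1R, was at 10.8 FPKM in the KIT-labelled library and 85.8 FPKM in the THY1-labelled library, while its second ligand Il34 was at 14.2 and 7.50 FPKM. Of 12 genes for ligands and myeloid transcription factors, 4 were higher by 2-fold or more in each library and the median difference was 0.35. Irf8, a factor of the monocyte lineage, was listed at 0 in the KIT-labelled library and at 23.4 FPKM in the other. Cebpb, a factor of myeloid cells and of inflammation, was at 33.9 and 2.24 FPKM, with the KIT-labelled library first. The factors thus differed in direction, as did all listed genes, with 29.8% higher by 2-fold or more in the KIT-labelled library and 31.0% in the other.

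Cd14 acts with TLR4 and its partner MD-2 (Ly96). Tlr4 was listed at 0 in both libraries. Ly96 was listed at 0 in the KIT-labelled library and at 66.4 FPKM in the THY1-labelled library, and the lipopolysaccharide-binding protein Lbp was at 2.94 and 65.7 FPKM. These partners were therefore higher in the library where Cd14 was lower. Of the 14 genes on this list, 4 were higher by 2-fold or more in the KIT-labelled library and 5 in the THY1-labelled one (median -0.12). The shares over all listed genes were 29.8% and 31.0% in the same order. Irak1, a kinase downstream, was listed at 0 against 25.1 FPKM, and Ly86 was at 6.39 and 0.575 FPKM.

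Of 26 receptors and kinases that work with Tyrobp and Fcer1g, 13 were higher by 2-fold or more in the KIT-labelled library, 2 in the THY1-labelled library and 11 within 2-fold, with a median difference of 1.03. Of those 13, 7 rested on fewer than 10 estimated fragments in the KIT-labelled library. Among all listed genes, 29.8% passed 2-fold toward the KIT-labelled library and 31.0% toward the THY1-labelled one. The count of 13 thus lay above its background share and the count of 2 below. Whether this lean is particular to the partners of Tyrobp and Fcer1g was not tested. Trem2, a lipid receptor that signals through TYROBP, was at 7.81 FPKM in the KIT-labelled library and 2.90 FPKM in the other. Fcgr1 was at 1.17 and 1.49 FPKM, and Fcgr3, whose product needs the FCER1G chain at the surface, was listed at 0 in both. The kinase Syk, listed as Sykb, was at a listed 0 and 3.87 FPKM. Higher in the KIT-labelled library were Siglech at 18.1 and 1.76 FPKM, Fcgr4 at 10.3 and 0.341 FPKM, Clec5a at 5.38 and 0.321 FPKM and the adaptor Lat2 at 37.0 and 12.1 FPKM.

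The remaining complement genes were divided between the libraries. Of 18 other components measured, 7 were higher by 2-fold or more in each library, with a median difference of -0.14. The shares over all listed genes were 29.8% in the KIT-labelled library and 31.0% in the other. The proteases that join C1q to form C1 were divided. C1s and C1ra were listed at 0 in the KIT-labelled library and at 27.8 and 10.5 FPKM in the THY1-labelled library. C1rb ran the same way as the C1q chains, at 21.2 FPKM in the KIT-labelled library and 1.69 FPKM in the other. C1ra and C1rb are near-identical copies, so reads may have been divided between them and their separate values are uncertain.

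Further along the classical pathway, C2 was at 32.2 FPKM in the KIT-labelled library and 432.8 FPKM in the THY1-labelled library. The central component C3 was at 3.06 and 56.3 FPKM, and C8g of the membrane attack complex was listed at 0 and 45.5 FPKM. Other components did not follow. C8a was at 15.6 and 0.461 FPKM and Hc at 7.56 and 0.296 FPKM, with the KIT-labelled library first. They rested on about 20.6 and 15.1 estimated fragments in the KIT-labelled library. C4a and C4b lay within 2-fold, with log2 differences of -0.27 and -0.90. Masp2, a protease of the lectin pathway, was at 421.3 and 63.1 FPKM, on about 471 and 452 estimated fragments. Like C1qb, it had similar fragment numbers in both libraries.

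Of 19 complement regulators and receptors, 8 were higher by 2-fold or more in the THY1-labelled library and 6 in the KIT-labelled library, with a median of -0.78. The shares over all listed genes were 31.0% and 29.8% in the same order. Serping1, the inhibitor of C1r and C1s, was at 3.23 FPKM in the KIT-labelled library and 41.5 FPKM in the other. Calr, which binds C1q on dying cells besides its role as a chaperone, was at 3.43 and 342.0 FPKM, and Clu, which blocks the membrane attack complex and is abundant in Sertoli cells, was at 1.62 and 848.2 FPKM. The surface inhibitors Cd59a and Daf2 (now Cd55b) were at a listed 0 and 29.6 FPKM and at 2.09 and 132.9 FPKM. Of the 6 genes higher in the KIT-labelled library, 5 rested on fewer than 10 estimated fragments there. The remaining one, C4bp, was at 32.6 FPKM in the KIT-labelled library and 0.564 FPKM in the other, a log2 difference of 4.42. It had about 45.8 estimated fragments in the KIT-labelled library.

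**Figure D4:**
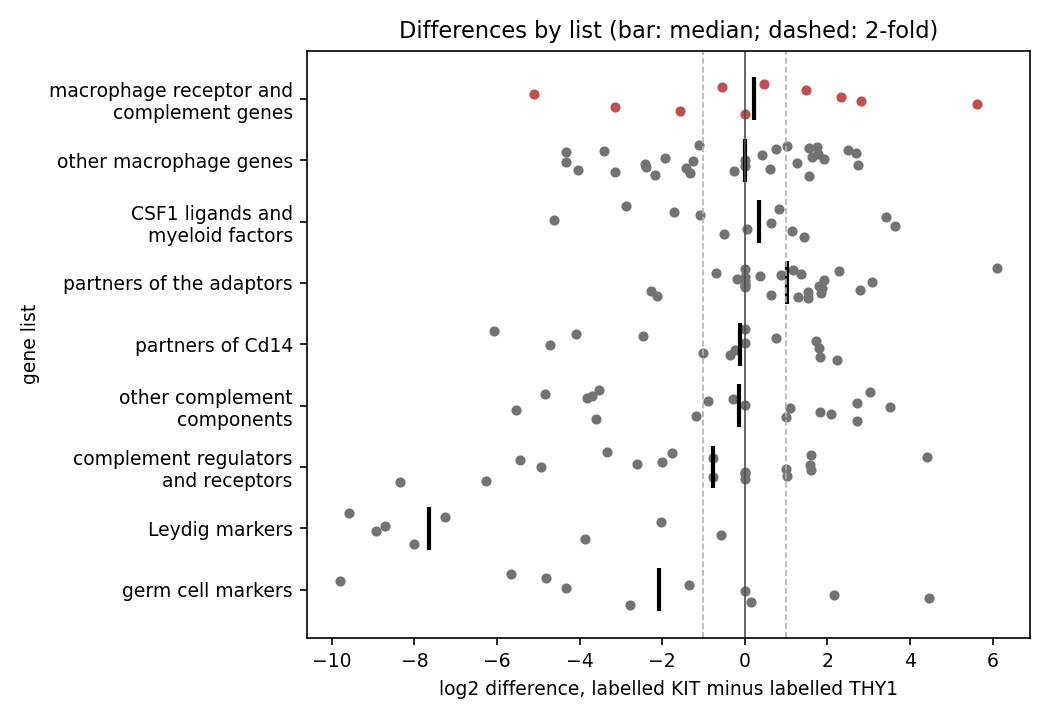
Differences on the log2(FPKM + 1) scale, labelled KIT minus labelled THY1, for the 10 genes (red points), 6 lists of related genes and 2 lists of other testis cells (grey points), 1 point per gene with a black bar at the median and dashed lines at 2-fold. The 10 genes spread from -5.11 for Aif1 to 5.62 for C1qc around a median of 0.23, while the Leydig median lies at -7.64.

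Markers of other testis cells differed by cell type. Of 8 Leydig markers measured, 7 were higher by 2-fold or more in the THY1-labelled library and none in the KIT-labelled library, with summed levels of 189.2 FPKM in the KIT-labelled library and 12931 FPKM in the other. Hsd3b6 and Hsd17b3 were listed at 0 in the former. Of 10 germ cell markers, 6 were higher by 2-fold or more in the THY1-labelled library and 2 in the KIT-labelled library (sums of 180.0 FPKM in the KIT-labelled library and 1438 FPKM in the other), with Zbtb16 listed at 0 in both and Mael and Sohlh2 at 0 in the KIT-labelled library. The part of these cells in the values of Aif1, Mrc1 and Tyrobp was not tested. By count, the other lists did not lean to the THY1-labelled library. Over all listed genes, 29.8% were higher by 2-fold or more in the KIT-labelled library and 31.0% in the other. Of 9 Sertoli markers, 4 were higher by 2-fold or more in the KIT-labelled library and 2 in the other (sums of 41.8 and 72.6 FPKM), with Gata1 and Fshr listed at 0 in the former. All 4 rested on fewer than 10 estimated fragments in the KIT-labelled library. The 2 others, Gata4 and Trf, had about 147 and 297 in the THY1-labelled library. Peritubular and stromal markers had 4 in each direction of 10 (sums of 218.6 and 203.5 FPKM), with Dcn, Pdgfra and Tcf21 at 0 in the KIT-labelled library. Endothelial markers had 2 in each direction of 8 (sums of 65.0 and 12.1 FPKM), with Pecam1 and Vwf at 0 in the KIT-labelled library and Emcn at 0 in both.

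Markers of other blood cells were higher in the KIT-labelled library where they differed by 2-fold or more, with 1 exception each in the mast cell and T cell lists. These lists are short. Over all listed genes, 29.8% were higher by 2-fold or more in the KIT-labelled library and 31.0% in the other. Of 9 neutrophil markers, 3 were higher in the KIT-labelled library and none in the THY1-labelled library, with summed levels of 33.3 and 8.55 FPKM in the same order. Ngp, a granule protein, was at 11.9 and 1.42 FPKM and Camp, an antimicrobial peptide, at 9.64 and 5.53 FPKM, while S100a8, S100a9, Ltf and Cxcr2 were listed at 0 in both. All 3 neutrophil genes that were higher in the KIT-labelled library rested on fewer than 10 estimated fragments there.

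Of 8 mast cell markers, 2 were higher by 2-fold or more in the KIT-labelled library and 1 in the THY1-labelled one (sums of 26.2 and 11.3 FPKM). In the library where each was higher, 1 of the 2 and the 1 rested on fewer than 10 estimated fragments. Gata2, a factor that mast cells share with other blood and endothelial cells, was at 17.5 FPKM in the KIT-labelled library and 1.97 FPKM in the other, and Mcpt4, Cma1, Tpsab1 and Ms4a2 were listed at 0 in both. Of 9 T cell markers, 4 were higher in the KIT-labelled library and 1 in the other, with sums of 51.8 and 15.2 FPKM. Of the 4, 2 rested on fewer than 10 estimated fragments in the KIT-labelled library. The surface antigens Cd5 and Cd8a were at 27.5 and 10.2 FPKM in the KIT-labelled library against 2.95 and 0.777 FPKM. The 1 in the other direction, Cd3d, was at 2.21 FPKM in the KIT-labelled library and 7.41 FPKM in the other. It had about 28.1 estimated fragments in the THY1-labelled library. Cd3g and Cd2 were listed at 0 in both. The shares over all listed genes were 29.8% in the KIT-labelled library and 31.0% in the other. The part of these cells in the values of Tyrobp and of the genes higher in the KIT-labelled library was not tested.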

How the data were processed

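RNA values of 2 of 13 samples were analysed, 1 library each. Total RNA was depleted of ribosomal RNA and made into directional libraries, per the labels' protocols. The deposited tables give 1 value per gene symbol with no unit, taken as FPKM because the submitters' processing notes name Cufflinks 2.1.1. They also name TopHat 1.4.1, CASAVA and mm9, without roles. Neither the annotation nor the treatment of multiply aligned reads is given in the sources used here. Tables follow their recorded samples, and samples their titles.

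Differences were computed as log2(FPKM + 1), labelled KIT minus labelled THY1, and genes counted at 2-fold, with no filter on low values. This scale understates the change of low genes. The worth of 1 fragment was percentile 5 of FPKM multiplied by length, over those of 2307 genes with 1 GENCODE M21 transcript over 1000 bases that were above 0. Estimated fragments use the longest transcript. Of 207 other genes on fixed lists, 202 matched a listed symbol, 5 under an older one. Neighbouring genes were taken from RefSeq on GRCm38.p6. Named genes are the 10, their direct partners, and per related list the 4 with the largest difference and a larger value of at least 5 FPKM and the 2 with the highest mean. Not all of these are printed. Genes printed outside this rule (zeros in marker lists, neighbours, Sfpi1, C4a, C4b, C4bp, C8a, Hc and Cd3d) were chosen after their values were seen. Genes and lists were chosen with earlier results of these data known. Counting was tested on simulated data. Alternatives were other scalings, pseudocounts, filters and folds. Analyses used Python 3.11.15, numpy 2.4.6 and pandas 2.3.3.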

Additional observations from a re-analysis of the deposited data

How the results depend on the processing

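The counts of 4 genes higher by 2-fold or more in the KIT-labelled library and 3 in the THY1-labelled library stayed between 3 and 4 and between 2 and 4 under every alternative run. At 4-fold they were 3 and 2, without Cd14 and Tyrobp. The median difference over the 10 genes, 0.23, was 0.25 with a pseudocount of 0.1, -0.027 scaled to a median ratio of 1, 0.36 scaled to the same upper quartile and 0.33 scaled to the sum without Rpph1. Requiring 1 FPKM in either library gave 0.46, and requiring 5 FPKM gave 0.46. It was -0.049 over the 8 genes above 0 in both libraries. It was also -0.049 over the 8 with at least 10 estimated fragments in either library, an alternative chosen after the data had been seen. The median is thus near 0 with no stable sign. The ratio between the libraries in the worth of 1 fragment was 6.46 at percentile 2 and 5.98 at percentile 10, both also added. No paired analysis was possible because each group has 1 library, and for the same reason no library could be left out. The unknown depth limits values below about 10 estimated fragments.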

Other observations

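Relatives of the 10 genes, which macrophages share with many other cells, also differed in direction. Of 16 measured, 5 were higher by 2-fold or more in the KIT-labelled library and 4 in the THY1-labelled library, with a median difference of 0. The shares over all listed genes were 29.8% and 31.0% in the same order. Lamp1, the lysosomal membrane protein related to CD68, was high in both libraries, at 492.8 FPKM in the KIT-labelled library and 617.3 FPKM in the THY1-labelled library. Lamp2 was at 1.73 and 80.5 FPKM in the same order. Mrc2, the collagen receptor of stromal cells related to MRC1, was at 34.3 and 1.46 FPKM, opposite to Mrc1. Aif1l, the closest relative of Aif1, was at 16.6 and 0.349 FPKM, opposite to Aif1. Cd247, the T cell receptor zeta chain and a relative of Fcer1g, was at 283.4 and 83.6 FPKM, on about 306 and 579 estimated fragments.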
